A study of Mus musculus with 7 samples.

Results

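The processed pseudogenes described here are the 201 genes that the deposited count table classes as processed pseudogenes and that gathered at least 500 counts over the 7 libraries of the study. They were chosen by that biotype and by their summed counts, so their abundance is a description and was not tested. The table lists 10302 processed pseudogenes among 55364 genes, and the 201 are 1.95% of them. Another 2475 had between 1 and 499 counts, and 7626 had no count. Of the 201, 183 have the biotype processed_pseudogene and 18 the biotype transcribed_processed_pseudogene. Unprocessed pseudogenes, whose biotype holds the same letters, were kept apart.

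A processed pseudogene is a copy of a spliced messenger RNA that was reverse transcribed, usually by the machinery of LINE-1 elements, and inserted elsewhere in the genome. Such copies lack the introns and usually the promoter of the parent gene, and most carry no known function. Genes with short, very abundant messenger RNAs, above all those of cytosolic ribosomal proteins, have left many such copies in mammalian genomes. Young copies differ from the parent at few bases, which makes it hard to say from which of them a short sequencing read came.

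The libraries hold RNA of CD4 T cells (CD45+CD3+CD4+ by flow sorting) taken from lung tumours grown orthotopically in C57BL/6 mice over 8 weeks of age. All mice were I-AbF/F, meaning that they carry loxP sites around a gene for an MHC class II chain, and all received tamoxifen. The 5 libraries of the Control group come from I-AbF/F mice without Cre. The Cre group has 2 libraries from I-AbF/F Col1a2-cre mice, in which the Col1a2 promoter, active in fibroblasts, drives Cre. Fibroblasts were thus the target of the deletion, and the sorted T cells were not. The study asked how CD4 T cells in the tumour differ when fibroblasts lack MHC class II. RNA was sequenced at the 3′ end of transcripts, and the series design names the libraries of a group biological replicates.

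The Control libraries hold 1484655 to 1724346 counts each, and Cre 1 and Cre 2 hold 1929899 and 1449739. Levels are given as CPM, the count divided by the total of its library and multiplied by 1000000. Where a library shows 0 counts, as many as 3 remain possible, or 1.55 to 2.07 CPM, and this limit covers counting error only. The 9 markers of CD4 T cells summed to between 4359 and 5531 CPM in the Control libraries, to 5696 CPM in Cre 1 and to 3941 CPM in Cre 2. Markers of CD8 T or NK cells, B cells, myeloid cells and epithelial cells summed to at most 40.0 CPM for any type in any library. The 4 myeloid markers summed to 5.22 to 40.0 CPM in the Control libraries, 0 in Cre 1 and 0.690 CPM in Cre 2, without overlap, and Adgre1, Csf1r and Lyz2 among them were at 0 in both Cre libraries. Neither Cre library had a count on markers of CD8 T or NK cells or of epithelial cells, which in Control ranged from 0 to 16.8 CPM and from 0 to 1.78 CPM. The 4 fibroblast markers summed to between 137 and 439 CPM in the Control libraries, to 239 CPM in Cre 1 and to 35.2 CPM in Cre 2. None of the 4 was at 0 in both Cre libraries. The part of these other cell types in the results below was not tested.

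The 201 pseudogenes held 869102 of 11528322 counts, or 7.54% of all counts and 90.2% of the counts on processed pseudogenes. In Control libraries 1 to 5 their share was 10.7%, 8.10%, 6.90%, 6.49% and 5.43% of counts (mean 7.52% ± 2.01, SD, n = 5). In the Cre libraries it was 7.37% and 7.88% (7.63% ± 0.362, n = 2), which lies inside the Control range. Control 1 was highest and Control 5 lowest, and without Control 1 the Control mean was 6.73%. The counts were concentrated: the gene with the most, Gm10073, held 6.87% of them, 12 genes held 40.3%, and 19 genes were enough to hold 50%. The median pseudogene had 1659 counts, 20 had 10000 or more, 109 had 1000 to 9999, and 72 had 500 to 999.

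Ribosomal protein genes were the parents of most of them. The parent of each copy was taken as the multi-exon protein-coding transcript of GENCODE M21 (build GRCm38, the same as mm10) that best matched it. All 201 had one, and they trace to 124 parent genes. For the 64 whose symbol gives a parent, as Rps12-ps4 gives Rps12, sequence gave the same gene each time. There were 75 copies grouped under large ribosomal subunit genes with 45.5% of the pseudogene counts, and 66 under small subunit genes with 37.6%. The large subunit group includes Gm9843, the copy of Fau, with 12867 counts, although Fau encodes a small subunit protein. Of the others, 39 were copies of assorted genes (11.8%), and 7 were copies of respiratory chain or ATP synthase genes (1.68% of the pseudogene counts). The parents in that group are Cox7c and Ndufab1 of the chain, and Atp5l, Atp5g2, Atp5h and Atp5md of the ATP synthase. There were also 5 copies of chromatin genes (0.922%), 4 of cytoskeletal genes (1.03%), 3 of translation factor genes (1.01%) and 2 of chaperone genes (0.390%). Ribosomal proteins were the parents of 70.1% of the 201, of 36.8% of the copies with 1 to 499 counts and of 17.6% of those with no count, among copies with a parent found.

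**Figure D1:**
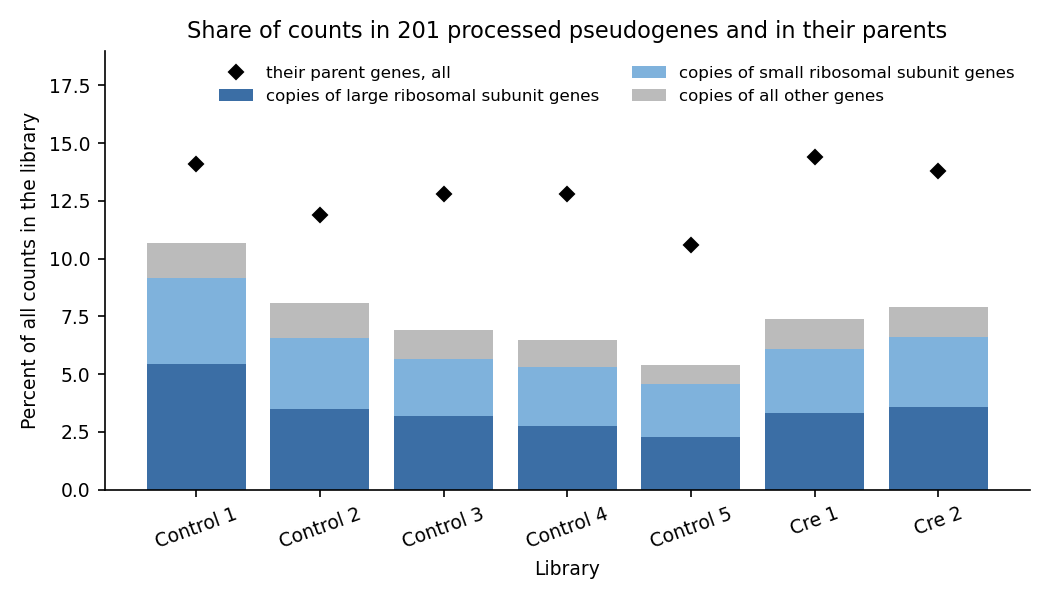
Percent of all counts in each library (vertical axis) that fell on the 201 processed pseudogenes, stacked by the kind of parent gene, with black diamonds for the share of their 124 parent genes. The stacked bars reach 10.7% in Control 1 and 5.43% in Control 5, and the Cre bars of 7.37% and 7.88% lie between them. The copy of Fau, a small subunit gene, is drawn with the large subunit genes.

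The parents themselves held 14.1%, 11.9%, 12.8%, 12.8% and 10.6% of counts in Control (12.5% ± 1.30, n = 5) and 14.4% and 13.8% in Cre. For every 100 counts on the parents there were 75.6, 68.3, 53.7, 50.5 and 51.1 counts on the copies in Control and 51.2 and 57.0 in Cre. Control 1 and Control 2 had the highest ratios, and the Cre ratios fell within the Control range.

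Almost all counts lay just past the annotated end of the copy. The table counts reads over stretches of sequence, usually of 249 bases, and the 201 pseudogenes have 210 of them, 199 of that length. Of these 210 regions, 191 lie wholly downstream of the annotated pseudogene, and they hold 94.9% of the pseudogene counts. Among protein-coding genes 1.47% of regions lie so, with 0.635% of counts, and among the copies under 500 counts 97.5%. The annotated copy mostly ends where the coding part of the parent ends: 191 of 201 aligned to the parent up to within 5 bases of their own annotated end, and in 167 of these that point was within 5 bases of the parent's stop codon. In those copies the counted region starts opposite the 3′ untranslated sequence of the parent. Apart from a stretch of Gm10073, the sequence of the counted regions was not analysed here. No annotated gene lies on the same strand at the counted regions of 175 pseudogenes, which hold 90.1% of the counts, and 51 lie opposite a gene on the other strand. Counted regions of 3 pseudogenes overlap, on the same strand, one counted for a different gene (Gm4149 with Mir682, Gm10774 with Usp50, Gm14686 with Emd), and they hold 3.37% of the pseudogene counts.

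The more counts a class of copies had, the closer it was to its parents in sequence. The median identity to the parent over the aligned bases was 99.1% for the 201 (quartiles 98% and 99.7%, lowest 84.0%). It was 95.3% for copies with 1 to 499 counts and 89.3% for copies with no count. A parent of at least 80% identity was found for 2304 of 2475 and for 5015 of 7626 of these. The values for these classes cover only copies with a parent found. Of the 201, 34 were identical to the parent over the aligned bases, and these held 33.0% of the pseudogene counts. The 38 copies from 99.5% to under 100% held 19.5%, the 76 copies from 98% to 99.5% held 30.9%, the 44 from 95% to 98% held 14.6%, and the 9 under 95% held 1.97%. Cut into all possible stretches of 50 bases, the median copy shared 63.1% of them unchanged with the parent, against 14.5% for copies with 1 to 499 counts, and 30 copies shared every one. Reads from the shared stretches cannot be assigned to the copy or the parent by sequence. These identities and stretches describe the annotated copy, while 94.9% of the pseudogene counts lay in regions wholly past it. How alike those regions are to the parents was not compared, apart from a stretch of Gm10073. How the authors treated reads that align to several places is not given in the sources used here. Each count below is the count assigned to a locus, and its origin is uncertain.

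**Figure D2:**
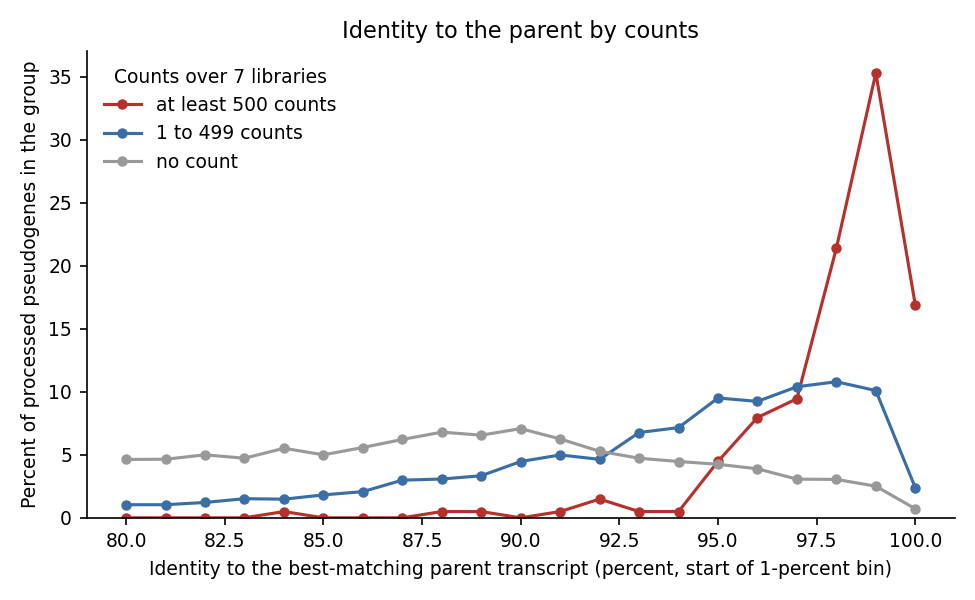
Percent of processed pseudogenes with a parent found (vertical axis) in each 1-percent bin of identity to the best-matching parent transcript (horizontal axis). Lines stand for the 201 with at least 500 counts, the copies with 1 to 499 counts and those with no count. Points at 100 are copies identical over the aligned bases, and 35.3% of the 201 fall in the bin from 99% to under 100%.

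The pseudogene with the most counts, Gm10073 (ENSMUSG00000060019, chr8:106573009-106573350, minus strand, mm10), is a copy of Rplp1, which encodes an acidic protein of the ribosomal stalk. It matched Rplp1 at 98.8% of 496 bases with 6 mismatches. GENCODE M21 classes it as protein-coding and carries it past the end given in the count table, so that 43 of its bases lie inside the counted region (chr8:106572760-106573008), with 1 difference from Rplp1. The other copy of Rplp1, Gm11942 on chromosome 4, matched it at 97.4%. The last 30 coding bases of Rplp1 (chr9:61913324-61913353, minus strand) and the bases opposite in Gm10073 (chr8:106573006-106573035, minus strand) and Gm11942 (chr4:32965203-32965232, plus strand) are shown because they lie next to the counted regions. Capitals mark the base at which Gm11942 differs, all sequences run 5′ to 3′, and here as in the sequences below the letters are those of GENCODE M21.
Rplp1: gatgacatgggcttCggtctttttgactaa
Gm10073: gatgacatgggcttcggtctttttgactaa
Gm11942: gatgacatgggcttTggtctttttgactaa
In Control 1 to 5, Gm10073 stood at 11753, 5697, 3325, 3237 and 3378 CPM (5478 ± 3657, SD, n = 5), and in Cre at 4764 and 3986 CPM (4375 ± 551, n = 2). Control 1 was far above the other Control libraries, and both Cre libraries lay within the Control range. Rplp1 had 12810 counts in Control 1 and 4722 to 8235 in the other Control libraries, so that Gm10073 had 155% of its parent's counts in Control 1 and 90.4% to 115% in the rest.

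Tpt1-ps3 (chr6:99877816-99878334, minus strand) is a copy of Tpt1, which encodes the translationally controlled tumour protein, and it was the most counted copy of a gene outside the ribosome. Its 519 aligned bases are identical to Tpt1. It stood at 4390.1, 4958, 3313, 3101 and 2354 CPM in Control and at 3415 and 4633 CPM in Cre, and the groups overlap. Tpt1-ps6 on chromosome X, identical at 97.9%, had 3705 counts against 42635 for Tpt1-ps3 and 68257 for Tpt1. The final 30 coding bases are the same in Tpt1 (chr14:75847334-75848101, plus strand, across an intron), in Tpt1-ps3 (chr6:99877816-99877845, minus strand) and in Tpt1-ps6 (chrX:101769028-101769057, plus strand), and they are shown once.
Tpt1, Tpt1-ps3 and Tpt1-ps6: aaggatggcttagagatggagaaatgttaa

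Copies of small subunit genes made up much of the rest. Rps23-ps1 (chr3:37714740-37715164, plus strand), identical to Rps23 over 425 bases, varied least of all between Control libraries. It stood at 3075, 3155, 3505, 3303 and 3264 CPM in Control (coefficient of variation 5.02%) and at 3657 and 3620.0 CPM in Cre. Both Cre libraries were above every Control library, by a small margin. Gm14303, identical to Rps29 over 171 bases, stood at 3432, 2504, 3326, 3104 and 2853 CPM in the Control libraries and at 3294 and 2799.8 CPM in the Cre libraries, and the groups overlap. Rps16-ps2, identical to Rps16 over 441 bases, stood at 2610.0, 1990.4, 1296, 1148 and 1871 CPM in Control, while Cre 1 had 1610.4 CPM and Cre 2 had 2365 CPM, again within the Control range.

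Rps13-ps2, identical to Rps13 over 453 bases, ranged from 1294 to 1947 CPM in Control and stood at 1518 and 1409 CPM in Cre. Gm8430 is a copy of Rps27a, whose product is a fusion of ubiquitin with a small subunit protein, and differs from it at 1 of 471 bases. It stood at 873, 1295, 1175, 1282 and 770 CPM in Control and at 1432 and 1867 CPM in Cre, both above every Control library. Its fitted log2 fold change of 0.61 ± 0.32 (SE) had an edgeR adjusted p of 0.43.

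Among copies of large subunit genes, Gm9794, with 1 mismatch to Rpl23 in 423 bases, stood at 6071, 2583, 2961, 2493 and 1159.9 CPM in Control, with 3416 CPM in Cre 1 and 3259.9 CPM in Cre 2. Among Control libraries its parent was likewise highest in Control 1 (6040 counts) and lowest in Control 5 (1284 counts). Gm4149, with 1 mismatch to Rpl37a in 276 bases, ranged from 1696 to 3101 CPM in Control and stood at 1828 and 2948 CPM in Cre. Gm11478, identical to Rpl13a at 98% of 600 bases, ranged from 1086 to 2895 CPM in Control and stood at 2357 and 2916 CPM in Cre. Rpl36a-ps2, identical to Rpl36a over 321 bases, stood at 3150.3 CPM in Control 1, at 739 to 1184 CPM in the other Control libraries and at 990 and 1399 CPM in Cre. In each of these copies the Control and Cre values overlap.

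**Figure D3:**
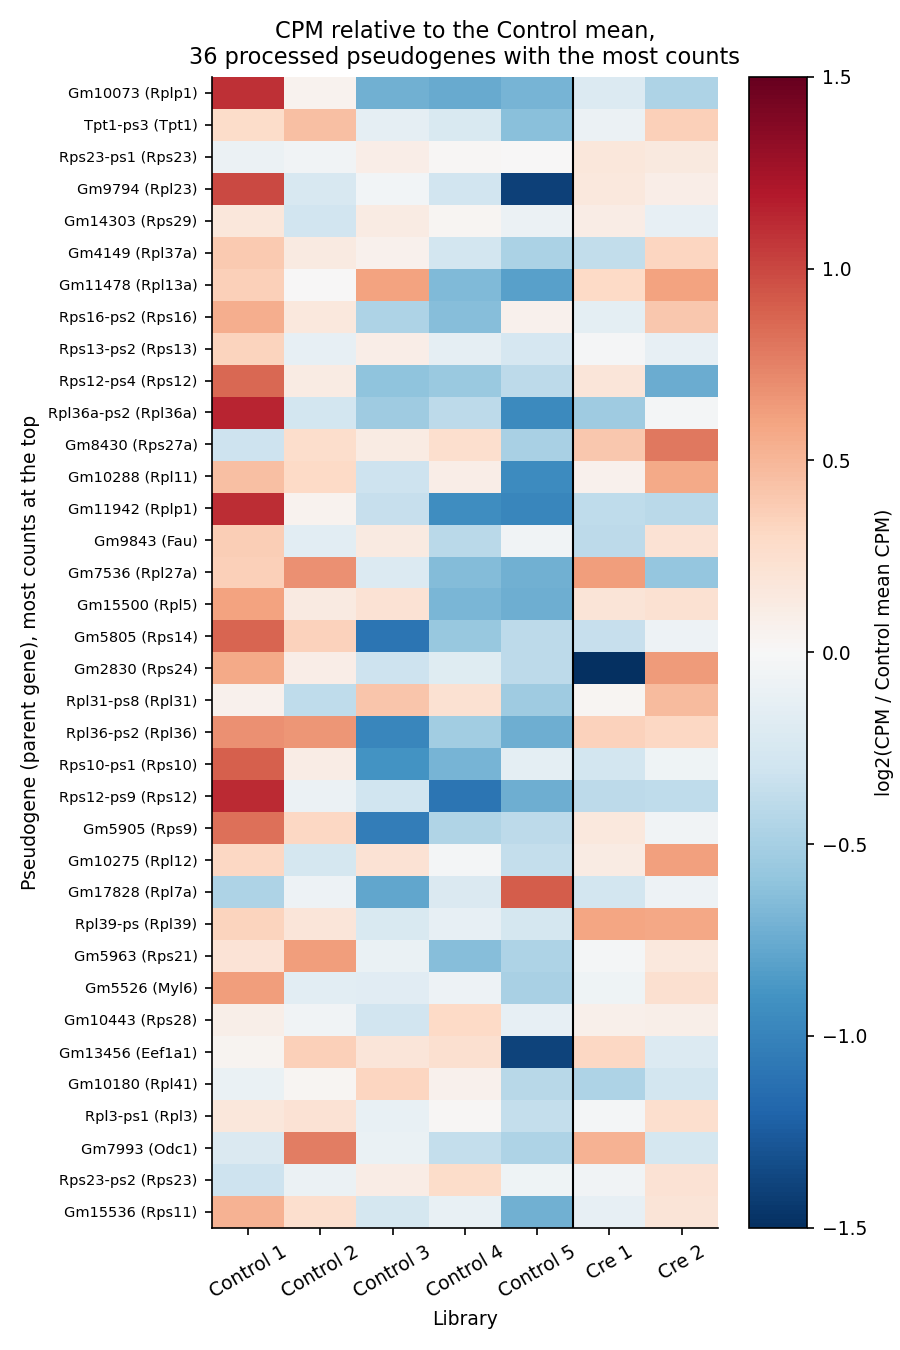
The 36 processed pseudogenes with the most counts (rows, parent gene in brackets) in the 7 libraries (columns), coloured by log2 of CPM over the Control mean, with colours saturating at 1.5 in either direction. Control 1 is red in most rows, as for Gm10073 at 11753 CPM, Control 5 is mostly blue, and the Cre columns are mixed.

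Several copies of the same parent differed widely in counts. There were 51 parents with 2 or more copies among the 201, which together have 128 of them, and Rps12 and Rps28 have 5 each. Rps12, a small subunit protein gene, had 28423 counts. Its copy Rps12-ps4 had 17248, Rps12-ps9 9291, Rps12-ps10 2864, Rps12-ps5 845 and Rps12-ps15 722. Identity to Rps12 was 99.5% for Rps12-ps4 and Rps12-ps9, 99% for Rps12-ps10, 98% for Rps12-ps15 and 95.5% for Rps12-ps5. The last 30 coding bases, which adjoin the counted region, are the same in Rps12 (chr10:23785211-23785240, minus strand) and all 5 copies.
Rps12 and 5 copies: atcgaggaatacttcaagtgcaagaaataa
In the bases shown next, further upstream and away from the counted region, the 5 copies differ from each other, but Rps12-ps4 matches Rps12. The 30 bases of Rps12 at which they differ most (chr10:23786798-23786827, minus strand) are shown with the bases opposite in Rps12-ps4 (chr7:30485001-30485030, minus strand), Rps12-ps9 (chr8:123206690-123206719, plus strand), Rps12-ps10 (chr2:122220060-122220089, plus strand), Rps12-ps5 (chr7:30263330-30263359, plus strand) and Rps12-ps15 (chrX:124973852-124973881, minus strand). Capitals mark the bases of a copy that differ from Rps12, and in Rps12 the bases that differ in any copy.
Rps12: agAcCgcCctCatccaCgatggcctagcaC
Rps12-ps4: agaccgccctcatccacgatggcctagcac
Rps12-ps9: agaccgccctTatccacgatggcctagcac
Rps12-ps10: agaccgcActcatccacgatggcctagcac
Rps12-ps5: agGccgccctcatccaTgatggcctagcac
Rps12-ps15: agacAgccctcatccacgatggcctagcaT
The libraries in which these copies were highest also differed. Rps12-ps4 was highest in Control 1 at 2786 CPM, with 1009 to 1681 CPM in the other Control libraries and 1748 and 921 CPM in Cre. Rps12-ps9 was likewise highest in Control 1, at 1874 CPM. Rps12-ps5 stood at 313 CPM in Control 4 and at 19.7 to 59.9 CPM in the other Control libraries, and Rps12-ps10 at 583 CPM in Control 4 and at 126 to 273 CPM in the others. Rps12 itself had 7560 counts in Control 4 and 2747 to 3250 in the other Control libraries. Rps12-ps15 was highest in Cre 1 at 172 CPM, with 66.9 CPM in Cre 2 and 7.54 to 104 CPM in Control.

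A pair of copies has the same annotated sequence throughout. Gm10180 and Gm10736 are each identical to Rpl41 over 78 bases, yet Gm10180 had 6850 counts, Gm10736 had 765 and Rpl41 had 3901. Their counted regions lie beyond those 78 bases.

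Over the 199 copies whose parent had a count, the median copy had 28.7% of the counts of its parent. In 50 of the 201 copies the count was above that of the parent, and in 47 it was under 10% of it. Per 100 counted bases 114 of the 201 copies stood above the parent. This division lowers parents with more and longer counted regions. With reads from the 3′ end a count need not grow with the bases counted, so it is not a corrected level. The median share of the parent's count was 92.6% in the 34 identical copies, 54.6% from 99.5% to under 100% identity, 22.4% from 98% to 99.5% and 13.5% from 95% to 98%. Under 95% it was 19.7%, above the class next to it, over the 7 copies there whose parent had a count. Rps16-ps2 had 21023 counts against 5689 for Rps16, and Rps23-ps1 had 38882 against 15439 for Rps23. Taken per 100 counted bases, Rps16-ps2 had 8443 counts and Rps16 had 744.

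The ratio to the parent was not constant across libraries. Rps16-ps2 had 907% and 1206% of the counts of Rps16 in Control 1 and 2, between 190% and 202% in Control 3 to 5, and 343% and 879% in Cre. Gm4149 had 759% and 703% of the counts of Rpl37a in Control 1 and 2, between 183% and 228% in Control 3 to 5, and 306% and 512% in Cre. Gm8186, identical to Snrpg, which encodes a core protein of spliceosomal particles, had between 65.5% and 103% of its parent's counts in all 7 libraries. For the 192 pairs with counts in every Control library, the SD of log2 CPM across Control was taken. Its median was 0.594 for the copy, 0.417 for the parent and 0.534 for their ratio. The ratio varied less than the copy in 102 pairs.

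**Figure D4:**
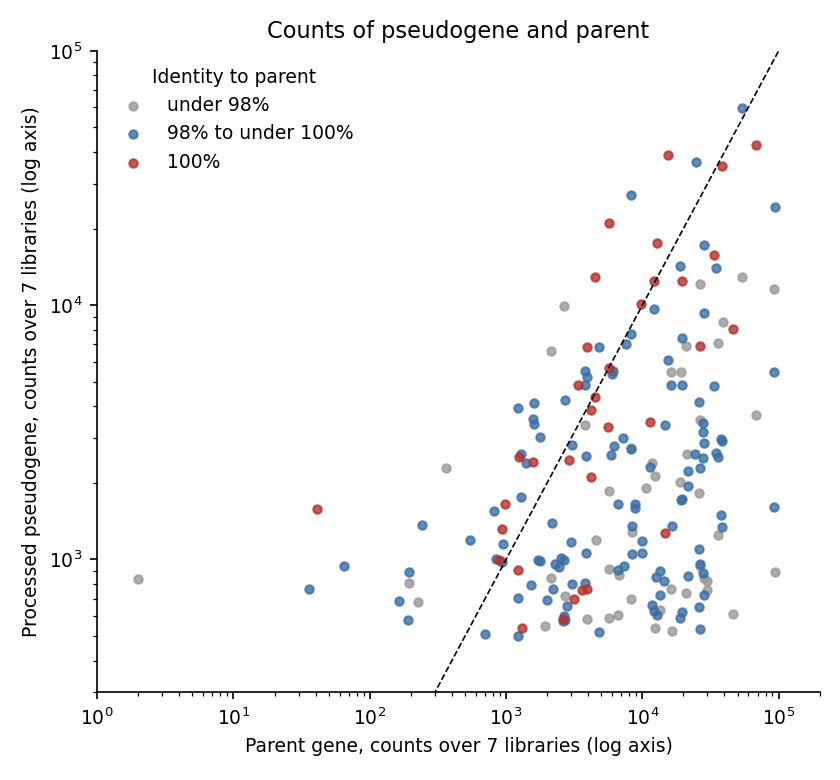
Counts of each processed pseudogene over the 7 libraries (vertical, log axis) against those of its parent gene (horizontal, log axis), coloured by identity to the parent, with a dashed line of equal counts. Copies of 2 parents with no count are not drawn, and 48 of the 199 copies drawn have more counts than their parent.

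A few copies had counts while the best-matching parent had almost none. Bambi-ps1, a copy at 88.6% identity of Bambi, which encodes a decoy receptor for TGF-beta family ligands, had 834 counts against 2 for Bambi. Gm11346, whose best match was Xlr5c at 84.0%, had 1032 counts, and Gm21926, whose best match was Nlrp2 at 91.2%, had 880, while Xlr5c and Nlrp2 had 0. Gm10175, identical over its aligned bases to Atp5g2, which encodes a subunit of the ATP synthase ring, had 1578 counts against 41. Gm4735 had 763 counts against 36 for Eno1b, and it matched the enolase gene Eno1 almost as well, at 99.6%.

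Copies of genes outside the ribosome covered several kinds of cell function. Gm7993, a copy of Odc1, which encodes the ornithine decarboxylase of polyamine synthesis, had 6594 counts against 2131 for Odc1 at 95.3% identity. Oaz1-ps, a copy of the gene for the antizyme that restrains that enzyme, had 2584 counts against 5863. Gm13456, a copy of the elongation factor gene Eef1a1, had 6906 counts, and Gm3788, a copy of the actin-binding thymosin gene Tmsb10, had 5517. Fbl-ps2, a copy of the gene for the nucleolar methyltransferase fibrillarin, had 2294 counts against 362 for Fbl. Copies of respiratory chain and ATP synthase genes included Gm12338, identical to Cox7c of the chain, with 4863 counts. Gm10221, identical to Atp5l of the ATP synthase, had 2427.

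The spread between Control libraries was moderate for most copies. The median coefficient of variation of CPM over the 5 Control libraries was 39.1% (quartiles 29.5% and 53.0%), against 75.7% over all 9854 genes tested, most of which are less abundant. At like levels the values were close: 36.9% for 104 copies and 39.6% for 1761 genes between 100 and 1000 CPM, and 34.1% for 19 copies and 30.3% for 139 genes at 1000 CPM or more. Below 100 CPM the 78 copies had a median of 45.2% and all genes 87.7%, but a copy could not be below 500 counts in all. After Rps23-ps1, the steadiest copies were Gm15421, a copy of Rpl22l1, at 11.6% and Rpl34-ps1 at 12%. The most variable was Gm14719, a copy of Ppdpf, at 201%, with 601 of its 681 counts in Control 3.

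Next came Rps12-ps5 at 138% and Gm10774, a copy of the RNA polymerase II subunit gene Polr2l, at 132%. Gm10774 stood at 438 CPM in Control 4 and at 21.5 to 110 CPM in the other Control libraries, and its counted region overlaps one of Usp50. Control 1 was the highest Control library for 92 of the 201 copies but for 14.5% of all genes tested, and Control 5 the lowest for 95 copies but for 18.9% of genes. The parents' share was likewise highest in Control 1 among Control libraries, at 14.1%, and lowest in Control 5, at 10.6%.

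The 3 copies just inside the limit of 500 counts were Gm5879 (518), Gm4459 (507) and Gm8172 (500), and the 3 processed pseudogenes just outside were Gmfg-ps (499), Gm3379 (496) and Psenen-ps (495).

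Between Cre and Control edgeR called no pseudogene, while DESeq2 and the authors' deposited table each called Gm9320 higher and Gm12751 lower. The authors' values also come from DESeq2 on these libraries, so they are not a separate line of support. None of the 201, all of which entered the test, passed an adjusted p of 0.05 in edgeR's quasi-likelihood test in either direction, where 0% of the 9854 genes tested were called higher and 0.0101% lower. Without adjustment, 2 copies were higher and 2 lower at p under 0.05, where all genes gave 1.41% higher and 10.2% lower. The smallest adjusted p was 0.367. With limma voom, which called 0.0304% of genes higher and 0% lower, no copy passed either. The fitted change was positive in 103 copies and negative in 98, with a median log2 fold change of 0.01 against -0.39 over all genes tested and 0.00 over the 557 genes at 300 CPM or more. The change lay within 1 on the log2 scale in 182 copies (90.5%), against 46.5% of all genes. These are unlike in level: 7954 of the 9854 genes had a Control mean under 100 CPM, against 78 of the 201 copies. The share among genes of like level was not computed, so 90.5% cannot be read as particular to the pseudogenes. Both Cre libraries were above every Control library for 9 copies and below for 9, where all genes gave 4.05% and 10.9%, and the groups overlapped for the other 183. In bulk RNA, fewer cells that carry a transcript and less of it per cell cannot be told apart.

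By family the median log2 fold change was 0.00 for copies of large subunit genes (from -1.10 to 1.09), with the copy of Fau counted among them. It was 0.05 for small subunit genes (from -1.98 to 1.76) and -0.23 for respiratory chain and ATP synthase genes. It was -0.15 for the 39 copies of assorted genes, -0.11 for cytoskeletal genes and 0.03 for chromatin genes. For the 3 copies of translation factor genes it was 0.19, and for the 2 copies of chaperone genes -0.43. The most abundant copies were close to 0, with Gm10073 at -0.35 ± 0.51 (SE), Tpt1-ps3 at 0.14 ± 0.33, Rps23-ps1 at 0.17 ± 0.24 and Gm14303 at 0.00 ± 0.27. Without Control 1 the fitted value of Gm10073 was 0.22, which turns its direction. Of the 124 parents 120 could be tested, none was called, and their median was 0.06. The copies and parents can share reads, so their values may not be independent. Other scalings moved the median of the 201 to 0.13 (DESeq2 size factors, 118 copies positive) and -0.10 (upper-quartile factors, 80 positive), so the sign of that median depends on the scaling. The family medians were not computed under other scalings.

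**Figure D5:**
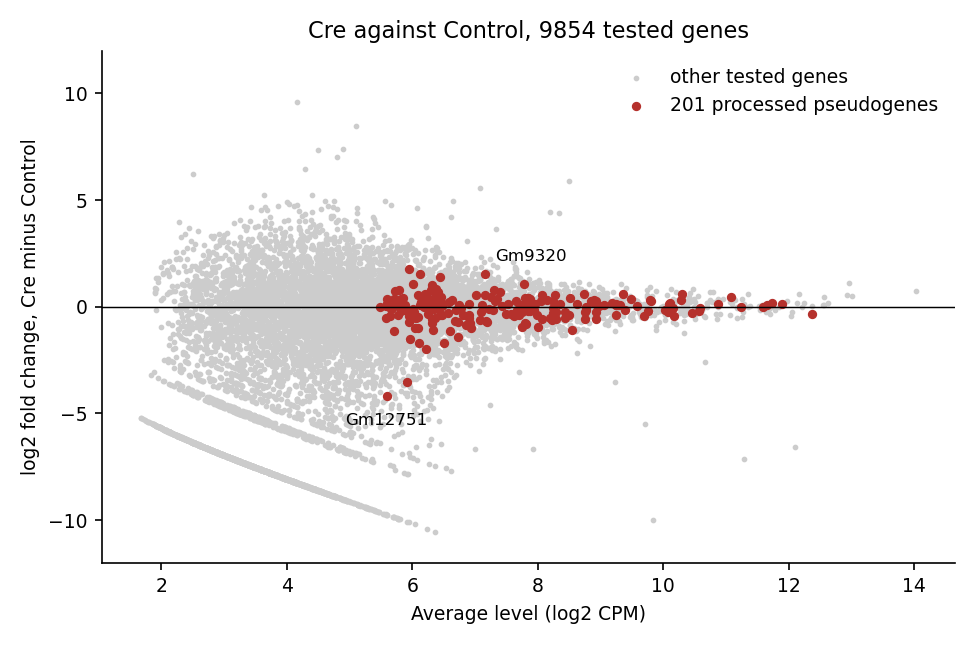
Fitted log2 fold change of Cre minus Control (vertical axis) against the average level in log2 CPM (horizontal axis) for the 9854 genes tested, with the 201 processed pseudogenes in red. Most red points lie within 1 of the zero line, and the labelled Gm9320 (1.56) and Gm12751 (-4.17) stand farther out.

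The copy with the smallest p was Gm9320 (chr17:70853767-70876312, plus strand), which matched the small subunit gene Rps24 at 98.1%. It stood at 64.1, 113, 96.6, 110 and 65.7 CPM in Control (89.8 ± 23.6) and at 225 and 303 CPM in Cre (264 ± 55.1), so that the groups do not overlap. Its log2 fold change was 1.56 ± 0.50 (SE), with an adjusted p of 0.367 in edgeR. DESeq2 put it past the threshold at an adjusted p of 0.041, where it called 0.355% of genes higher, and the authors' deposited table, in which 0.211% of genes are higher at an FDR under 0.05, gives it an FDR of 0.0291 with a log2 fold change of 1.65. Its parent had 8163 to 10775 counts per Control library, 30327 in Cre 1 and 14254 in Cre 2, with a log2 fold change of 1.12 ± 0.26 and an adjusted p of 0.235 in edgeR. Gm9320 had 1.12% to 1.91% of the counts of Rps24 in Control and 1.43% and 3.08% in Cre.

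Gm12751 (chr4:34354043-34354423, plus strand) is identical over 381 bases to Polr1d, which encodes a subunit shared by RNA polymerases I and III. It stood at 56.4, 54.6, 57.8, 70.2 and 82.9 CPM in Control (64.4 ± 12.1) and at 6.74 and 0 CPM in Cre, from 13 and 0 counts, so both Cre libraries were below every Control library. Its log2 fold change was -4.17 ± 1.60 (SE), with an adjusted p of 0.422 in edgeR and 0.00754 in DESeq2, which called 6.16% of genes lower. The authors' deposited table, in which 3.64% of genes are lower at an FDR under 0.05, gives a log2 fold change of -3.91 at an FDR of 0.00221. These 2 copies were the only ones of the 201 past that FDR. Polr1d had 138 to 379 counts per Control library, 31 in Cre 1 and 48 in Cre 2, with a log2 fold change of -2.60 ± 0.74 and an adjusted p of 0.349 in edgeR. Of the 188 copies aligned to their last annotated base, 157 (83.5%) had their last 30 bases unchanged in the parent. So it was here: the final 30 coding bases are the same in Polr1d (chr5:147110898-147110927, plus strand) and Gm12751 (chr4:34354394-34354423, plus strand).
Polr1d and Gm12751: aagtgcgacccacggcccagcaggcgatga

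Gm8186, the copy of Snrpg, stood at 106 to 212 CPM in Control and at 246 and 455 CPM in Cre, without overlap, at a log2 fold change of 1.09 ± 0.44 and an adjusted p of 0.422 in edgeR. Snrpg had a value of 1.05 ± 0.45. Gm12191, a copy of the large subunit gene Rpl30 with 1 mismatch in 348 bases, stood at 336 to 521 CPM in Control and at 237 and 166 CPM in Cre, at -1.10 ± 0.41 and an adjusted p of 0.422, and Rpl30 had a value of -0.44 ± 0.41. Next in order of p among copies with higher values in Cre, after Gm8430 described above, were Gm13736, identical to the signal recognition particle gene Srp9, at 1.40 ± 0.74, Rpl39-ps at 0.58 ± 0.33 and Rps12-ps15 at 1.76 ± 1.05. Next among those with lower values were Gm4735 at -1.69 ± 0.94, Gm10059, a copy of Rps29, at -0.94 ± 0.53, Gm4332, a copy of Rps20, at -0.79 ± 0.44 and Gm3375, a copy of the proteasome gene Psmb5, at -1.40 ± 0.88. None of these passed the threshold.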

How the data were processed

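The deposited table holds raw counts of reads per 3′ region, per the file headers, for 7 libraries. The submitters' processing notes list the build mm10 and the tools HISAT2 2.1.0, FastQC 0.11.8 and DESeq2. Not given in the sources used here are the counting tool, its use of strand and its treatment of reads with several alignments. The authors' deposited comparison gives p-values and FDR, a fold as a ratio of normalized values, a log2 fold change and the GC content in percent.

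Counts were summed per gene. Parents were found with BLAST 2.17.0 (word size 16, at least 80% identity, and 100 aligned bases or 95% of the copy) against transcripts of GENCODE M21, and overlaps with bedtools 2.31.1. Cre was compared with Control by edgeR 4.0.16 in R 4.3.3 (TMM, filterByExpr with minimum count 10 and minimum total 15, robust quasi-likelihood F-test, two-sided), adjusted by Benjamini-Hochberg over 9854 genes at a threshold of 0.05. The SE printed with an edgeR log2 fold change was derived, as the absolute fold change divided by the square root of the F statistic. It is not a value that edgeR reports. Alternatives included DESeq2 1.42.0, limma 3.58.1 (voom), other scalings and filters, and each library left out. The fit was run on simulated data with known changes, and it missed most of them. Of genes changed by -2 and -4 on the log2 scale it called 0.667% and 7.33%. For changes of 2 and 4 it called 6.00% and 38.0%, and 0.0276% of unchanged genes were called. The changed genes were drawn at random from all genes tested, so these rates need not hold for the pseudogenes alone.

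The pseudogenes and lists were chosen with earlier results of these data known. Named are the 12 with the most counts, the 6 of smallest p in each direction, up to 10 with the most counts whose symbol gives a parent, the 3 with the largest and the 3 with the smallest Control variation, and the 3 on each side of the count limit. The rule also names any past the threshold and any at 0 in both Cre libraries or in a library of each group, which none met. Others were named after their values were seen. Replicate numbers were not used to pair the libraries in the main comparison. Mitochondrially encoded genes were not analysed here.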

Additional observations from a re-analysis of the deposited data

Results flagged for a closer look

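In 8 named pseudogenes a Control library lay farther from the other 4 than Dixon's test allows for 5 values. Chance gives this in about 1 in 20 groups not picked for their spread. Gm14719, Rps12-ps5 and Gm10774 were named for having the largest Control variation, so that rate does not apply to them. Control 1 was the high library for Gm10073 at 11753 CPM, Rpl36a-ps2 at 3150.3 CPM, Rps12-ps9 at 1874 CPM and Gm8172 at 81.3 CPM. Control 4 was the high library for Gm10774 at 438 CPM, Gm4332 at 355 CPM and Rps12-ps5 at 313 CPM, and Control 3 for Gm14719 at 370 CPM. Over all 201 pseudogenes the test marked 26 (12.9%), 15 of them with Control 1 highest. The share it would mark over all genes was not computed, so 12.9% cannot be read as particular to the pseudogenes.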

How the results depend on the processing

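The count of pseudogenes past the threshold was 0 in each direction with no filter, the stricter filter, upper-quartile factors or DESeq2 size factors, with limma voom, regions without overlaps, limits of 200 or 1000 counts, and the unprocessed pseudogenes included. DESeq2 called 1 higher (Gm9320, 1.66 on the log2 scale) and 1 lower (Gm12751, -4.11). Leaving out a library gave 0 higher each time and 0 to 3 lower, the 3 (Gm11346, Gm12751 and Gstp-ps, each with 0 to 2 counts in Cre 2) without Cre replicate 1, where 1.74% of all genes tested were called lower. With 1 Cre library left, that library is assumed to vary like the Control libraries. With the replicate number as a block none was called and the median log2 fold change was -0.35. The correlations of deviations between libraries of the same number were 0.00302 and 0.00202. The deviations of 2 Cre libraries mirror each other, so these values cannot settle whether the numbers pair the libraries. Over all alternatives that median ran from -0.35 to 0.18 (without Control 1), and the fitted sign turned under some alternative in 17 of 35 named pseudogenes. The Cre share of 7.63% became 8.04% at a limit of 200 counts, 7.15% at 1000 and 8.43% without overlapping regions, and 7.37% to 7.88% with a Cre library left out. The median share of stretches found in the parent was 76.6% with 30 bases and 50.3% with 75. With 2 Cre libraries, missing the threshold does not show that a copy had the same level in both groups.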

Other observations

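The 11 unprocessed pseudogenes with at least 500 counts, kept apart above, held 0.484% of all counts. Their share was 0.431% to 0.731% in Control and 0.244% and 0.382% in Cre. The 2 with the most counts were Gm28661, with 904 to 6695 counts per Control library and 459 and 681 in the Cre libraries, and Gm28437, with 851 to 4967 per Control library and 940 and 2446 in the Cre libraries.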
